A study of Mus musculus with 6 samples.

Results

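The Foxp3 locus, on mouse chromosome X, was examined in peak lists of ATAC-seq, an assay in which the transposase Tn5 cuts accessible DNA, from regulatory T cells (Tregs). The members are the peaks that overlap the Foxp3 gene (chromosome X, 7579676 to 7595243, mm10) or 10 kb on either side. These were 32 peaks in 6 libraries, and after overlapping peaks were merged they formed 8 regions, of 64817 regions in the whole series. One of the 8 also takes in a peak of KO replicate 4 that began 19 bp outside the window. Of the 8 regions, 4 were called in all 6 libraries.

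The study compared 3 libraries from C57BL6 wild-type (WT) mice with 3 from il33-/- mice in a C57BL6 background (KO), which lack the gene of the cytokine interleukin-33 in the whole animal. All mice had received 300000 B16.F10 melanoma cells under the skin and all cells came from lymph nodes draining the tumour on day 14, so no group was free of tumour. Tregs were sorted by the surface markers CD4, CD25 and GITR. The labels also call them Foxp3+ but list no Foxp3 stain or reporter in the sort, and neither the age nor the sex of the mice nor separate mice per library is stated. The p-values therefore speak of the spread among these 6 libraries, part or all of which may be technical.

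Foxp3 encodes the forkhead transcription factor that defines the Treg lineage and keeps its gene programme in place. Its transcription is governed by the promoter and by conserved noncoding sequences (CNS). CNS0, upstream of the promoter, is bound by Satb1 in Treg precursors, CNS1 carries Smad and NFAT sites and serves Tregs induced outside the thymus, CNS2 is a CpG-rich element that is demethylated in stable Tregs and maintains Foxp3 expression through cell division, and CNS3 is bound by c-Rel and aids the start of expression. Foxp3 runs toward higher coordinates, between Ppp1r3f, which encodes a regulatory subunit of protein phosphatase 1, and Ccdc22, which encodes a subunit of the CCC complex of endosomal sorting. The long noncoding RNA gene Flicr begins inside Ppp1r3f and reaches into Foxp3.

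The promoters of these genes differed in base composition, and those of Foxp3, Ppp1r3f and Ccdc22 are shown. Whether base composition bears on the peaks was not tested. Sequences are from RefSeq on GRCm38.p6, the assembly behind mm10. Each runs 5′ to 3′ on the gene's own strand, from 250 bases before the annotated start to 50 after it, with every CG dinucleotide in capitals. They lie at chrX:7579426-7579725 on the plus strand (Foxp3), chrX:7574232-7574531 on the minus strand (Ppp1r3f) and chrX:7605371-7605670 on the minus strand (Ccdc22).
Foxp3: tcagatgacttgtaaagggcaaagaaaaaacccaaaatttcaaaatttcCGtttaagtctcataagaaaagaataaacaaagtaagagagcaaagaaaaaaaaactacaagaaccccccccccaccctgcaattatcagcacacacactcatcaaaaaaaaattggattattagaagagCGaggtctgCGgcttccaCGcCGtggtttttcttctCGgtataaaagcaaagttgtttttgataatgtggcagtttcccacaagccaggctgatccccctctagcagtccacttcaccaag
Ppp1r3f: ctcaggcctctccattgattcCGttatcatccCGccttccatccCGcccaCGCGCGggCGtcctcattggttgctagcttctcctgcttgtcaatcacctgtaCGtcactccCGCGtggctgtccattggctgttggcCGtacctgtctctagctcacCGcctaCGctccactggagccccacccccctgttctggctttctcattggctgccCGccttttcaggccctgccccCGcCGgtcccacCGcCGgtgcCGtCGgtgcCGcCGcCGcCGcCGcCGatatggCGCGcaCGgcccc
Ccdc22: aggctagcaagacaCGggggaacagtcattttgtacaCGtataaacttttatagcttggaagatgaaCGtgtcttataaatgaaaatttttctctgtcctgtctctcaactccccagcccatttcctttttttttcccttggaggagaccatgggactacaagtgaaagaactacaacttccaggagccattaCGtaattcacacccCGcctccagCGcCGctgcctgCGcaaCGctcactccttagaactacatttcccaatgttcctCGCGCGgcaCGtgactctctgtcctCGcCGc
The Foxp3 window held 6 CG dinucleotides at a GC content of 40.7%, which was above that of only 11.4% of the 32851 promoter windows in the table. The Ppp1r3f window held 29 CG dinucleotides at 66.7% GC, and the Ccdc22 window 15 at 48.7%. The median number over all windows was 7. The Flicr window, not printed, held 20 at 67.3% GC and had no peak in any library. The window at the alternative RefSeq start of Foxp3 held 8 at 47.7% GC and had no peak either. The letters TATAAA, the core of a TATA box, stood at -32 bp from the annotated Foxp3 start and occurred on either strand in 13.6% of all windows. The letters GGAAA, the core of an NFAT site, occurred 2 times on the minus strand of the Foxp3 window, once upstream of the start and once directly after it, and in 61.3% of all windows. The Ppp1r3f window had 2 copies of GCCAAT, the core of a CCAAT box, both on the strand opposite to the one printed (14.7% of windows), and none of TATAAA or GGAAA. The Ccdc22 window had 3 copies of TATAAA over both strands, the nearest at -176 bp from its start, and 3 of GGAAA.

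The libraries differed in depth in the same direction as in genotype. WT libraries held 12.9 to 15.2 M (mega) tags after removal of duplicates and KO libraries 4.72 to 10.3 M. Chromosome Y held 8 or 9 peaks in each WT list and 0 in each KO list, and chromosome X held 2.25% ± 0.0328 of WT and 2.14% ± 0.0238 of KO peaks (SD, n = 3 each). What part depth or the chromosome Y difference has in the results at Foxp3, which lies on chromosome X, was not tested. Both parted the genotypes without overlap, so neither can be told apart from genotype. As a check of cell type, each of the 7 T cell and Treg marker genes (Cd3e, Cd4, Foxp3, Il2ra, Tnfrsf18, Ikzf2 and Ctla4) had a region called in all 6 libraries in or within 10 kb of it. Of 15 markers of other cells, 7 had one. The CD8 T cell gene Cd8a and the melanoma genes Tyr and Dct did not, while Cd79a, Cd14 and Pmel had regions at mean WT height percentiles of 91.2, 93.4 and 99.5, where 100 is the tallest. These windows can take in neighbouring genes, and their part in the results was not tested. Regions called in all 6 libraries were also common at genes in general, with a median of 2 over the 16246 protein-coding genes that had any region. The check therefore says little about cell type.

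The locus held more accessible regions than most genes, by counts that were not scaled to the length of the gene. Its 8 regions compare with a median of 3 over the 16246 protein-coding genes that had any region in or within 10 kb, and 90.1% of these genes had fewer. Its 4 regions called in all 6 libraries compare with a median of 2, and 86.0% of genes had fewer. By position relative to the annotated Foxp3 start the 4 were at the Ppp1r3f start upstream, on CNS2, on the 3′ end of Foxp3 and on the Ccdc22 start. The other 4 were called in 1 to 4 libraries each. In each library their peaks had a less significant p-value than any of the first 4, but not always a lower height: in KO replicate 2 the region at -7 kb, of height 22, was taller than the 3′ end and the Ccdc22 start, of heights 21 and 20.

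**Figure D1:**
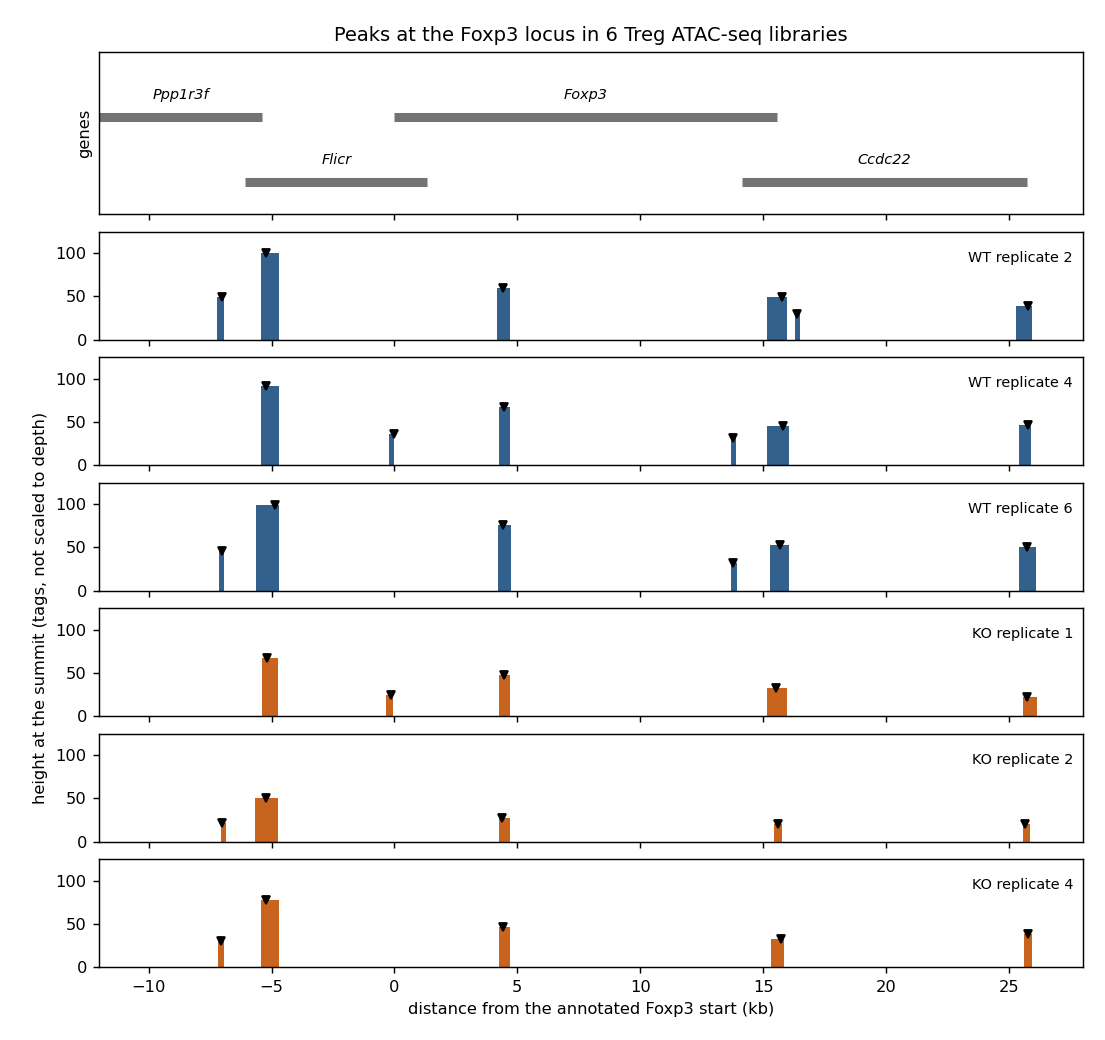
Peaks of each library along the Foxp3 locus, with distance from the annotated Foxp3 start in kb on the x axis and height at the summit in tags, not scaled to depth, on the y axis. Boxes span the called peak, triangles mark the summit and grey bars the genes. The tallest peak of all 6 libraries lies upstream of Foxp3, between -5.24 and -4.88 kb, and the next at CNS2.

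CNS2 was accessible in every library. The region (chromosome X, 7583839 to 7584434, inside Foxp3) spanned 4.16 to 4.76 kb from the annotated start, matching the approximate published position of CNS2, 4.2 to 4.8 kb. Its peaks were 437 to 547 bp long. The summits lay 4406, 4434 and 4428 bp from the start in WT replicates 2, 4 and 6 and 4435, 4370 and 4433 bp in KO replicates 1, 2 and 4. All 6 summits thus fell within 65 bp of each other, the lowest being that of KO replicate 2, the shallowest library. The height at the summit, the number of extended tags covering it, was 60, 67 and 76 in WT replicates 2, 4 and 6 and 48, 27 and 46 in KO replicates 1, 2 and 4. These heights are the authors' own per-peak values, are not scaled to depth, and so were not compared between genotypes as they stand. Within its own list the CNS2 peak ranked 10626 of 53251, 9370 of 55939 and 7990 of 52836 in the WT libraries. In the KO libraries it ranked 6926 of 42408, 10631 of 37266 and 8762 of 42738. CNS2 was thus taller than 70.8% to 84.7% of the peaks of its list. It stood lower by the deposited measures that take the background into account, above 50.2% to 74.7% of the peaks by p-value and above 17.2% to 38.4% by fold enrichment.

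The tallest peak of the locus lay upstream, where Ppp1r3f begins, inside Flicr. This region (chromosome X, 7574017 to 7574989) spans -5.66 to -4.69 kb. It takes in the annotated start of Ppp1r3f but not that of Flicr, which lies at -6.08 kb and had no peak in its promoter window. Its heights were 100, 91 and 99 in WT replicates 2, 4 and 6 and 67, 51 and 78 in KO replicates 1, 2 and 4, and in every list it stood above 91.0% to 95% of peaks. The summit lay between -5238 and -5190 bp in 5 libraries. In WT replicate 6 it lay at -4878 bp, nearer to Foxp3 within the same peak. The peaks were 656 to 946 bp long.

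At the 3′ end of Foxp3, a region that spans the annotated gene end and lies inside the oppositely transcribed Ccdc22 (chromosome X, 7594828 to 7595723) was called in all 6 libraries. Its heights were 49, 45 and 53 in WT replicates 2, 4 and 6 and 33, 21 and 33 in KO replicates 1, 2 and 4, above 60.8% to 74.6% of the peaks of the lists. The summits were spread over 256 bp, from 15529 to 15785 bp after the Foxp3 start, and the peaks were 348 to 889 bp long. The fourth region, at the Ccdc22 start (chromosome X, 7604950 to 7605812), had heights of 39, 47 and 51 in WT replicates 2, 4 and 6 and 22, 20 and 38 in KO replicates 1, 2 and 4. Its summits all lay within 97 bp of each other, 25658 to 25755 bp after the Foxp3 start. It belongs to the window only by its edge, at the far border of the 10 kb.

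The order of heights was alike in the libraries. The Ppp1r3f start region was 1.30 to 1.89 times as tall as CNS2 within a library, a log2 ratio of 0.62 ± 0.21 (SD, n = 6), and taller in 6 of 6. CNS2 was 1.22 to 1.49 times as tall as the 3′ end region, a log2 ratio of 0.46 ± 0.11, also in 6 of 6. Each of these 2 differences had a two-sided exact sign-flip permutation p = 0.0312 over the 6 libraries, the smallest possible, and an adjusted p = 0.0625 (Benjamini-Hochberg over 6 such comparisons). The pairs were not planned and follow the order seen in these same heights. Their p-values are thus no independent support for that order. The 3′ end and the Ccdc22 start did not differ beyond their spread, with a log2 ratio of 0.13 ± 0.28 and the 3′ end taller in 4 of 6 libraries (exact permutation p = 0.344).

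**Figure D2:**
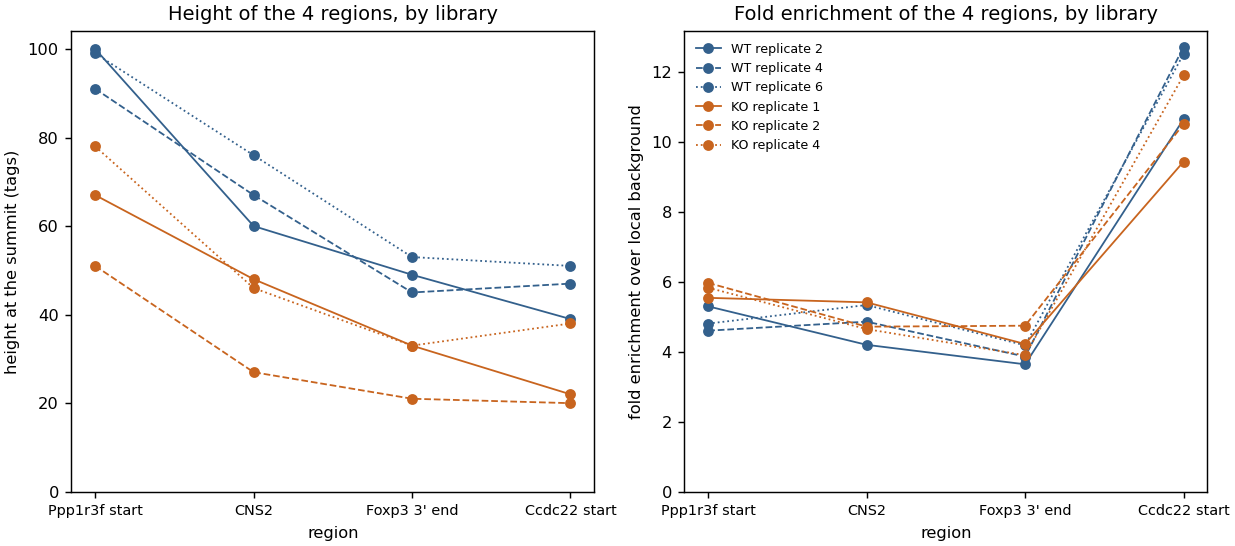
Height at the summit in tags (left) and fold enrichment over the local background (right) of the 4 regions called in all 6 libraries, by library, with lines joining the values of one library. The Ppp1r3f start region is the tallest and the Ccdc22 start has the highest fold, 9.43 to 12.7, in each library.

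Measured against their surroundings the regions took another order. The deposited fold enrichment divides the height by a background, which is that of tags in the 10000 bp around the peak or, where this is lower, the genome-wide mean of the library. With no control these are tags of the same library, so the peak itself and its neighbours count in it. The Ccdc22 start had the highest fold of the locus in all 6 libraries, 10.6, 12.7 and 12.5 in WT replicates 2, 4 and 6 and 9.43, 10.5 and 11.9 in KO replicates 1, 2 and 4. The Ppp1r3f start region had folds of 4.60 to 5.96, CNS2 4.2 to 5.41 and the 3′ end 3.64 to 4.74. The Ccdc22 start exceeded the Ppp1r3f start region 1.70 to 2.76 times (6 of 6 libraries, exact permutation p = 0.0312, adjusted p = 0.0625), whereas the latter and CNS2 did not differ beyond their spread (log2 ratio 0.13 ± 0.23, exact permutation p = 0.219, n = 6). These pairs too follow the order seen in the same folds, so the p-values are no independent support for it.

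The background behind these folds was high across Foxp3 itself. The local background implied by height and fold at CNS2 was 13.5, 13.0 and 13.4 tags in WT replicates 2, 4 and 6 and 8.06, 4.94 and 9.12 tags in KO replicates 1, 2 and 4, which is 3.17 to 4.06 times the median over all peaks of the same library. At the Ppp1r3f start region it was 4.36 to 5.94 times that median, above the background of 98.6% to 99.1% of peaks in the lists. At the Ccdc22 start it was 0.643 to 0.888 times the median, so the background at CNS2 exceeded that at the Ccdc22 start 4.00 to 5.60 times within a library. Over the locus and 50 kb on either side, the 43 peaks with a summit within 20 kb of the Foxp3 start had backgrounds of 1.86 to 5.94 times the library median, in every library. The 6 peaks farther upstream had 0.393 to 0.458 times, but 5 of these 6 values were the genome-wide mean of the library, below which the background cannot fall, so they are upper limits of the local one. The 30 farther downstream had 0.520 to 2.46 times, the highest of these at 69.3 kb. None of the peaks within 20 kb or farther downstream was at that mean. High background was thus found from just outside the window, at -14 kb, to the 3′ end of Foxp3, and a background under the library median at the Ccdc22 start. This profile was examined after the data were seen.

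**Figure D3:**
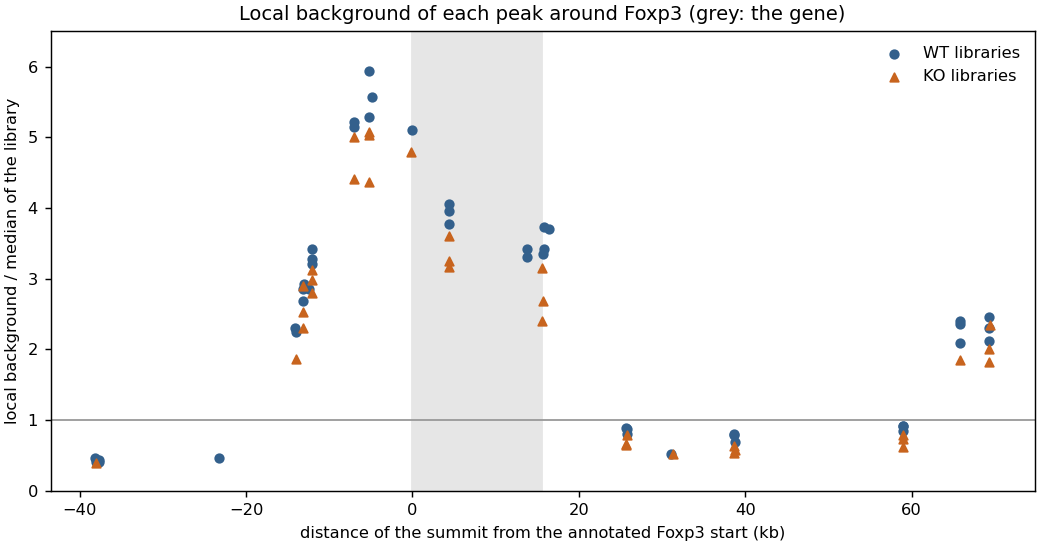
Local background of each peak, as a multiple of the median over all peaks of its library, against the distance of its summit from the annotated Foxp3 start in kb. WT libraries are circles, KO libraries triangles, the grey band is the Foxp3 gene and the line at 1 the median. Within 20 kb of the start the values lie between 1.86 and 5.94.

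The Foxp3 promoter, in contrast, was called in 1 WT and 1 KO library. WT replicate 4 had a peak of height 36 with its summit at -29 bp, beside the TATAAA letters printed above, and KO replicate 1 one of height 25 with its summit at -154 bp. Both were among the least significant of their lists: 3.86% and 0.448% of the peaks of the list had a less significant p-value, although 62.5% and 59.9% were less tall. No library had a peak at the alternative RefSeq start of Foxp3, 807 bp downstream. The region at -7 kb (chromosome X, 7572465 to 7572814, inside Ppp1r3f), which overlaps only the near edge of the approximate position of CNS0, -9 to -7 kb, was called in WT replicates 2 and 6 and KO replicates 2 and 4. Its heights were 49 and 46 in these WT and 22 and 30 in these KO libraries, at folds of only 2.26 to 2.69.

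No peak was called at the approximate positions of CNS1 (2 to 2.7 kb) and CNS3 (6.9 to 7.1 kb) in any library. At the background found at CNS2, a height of 26 to 27 tags in the WT libraries and of 14 to 21 in the KO libraries would have been needed to reach the lowest significance in the list, against 10 to 11 and 7 to 10 tags at the median background. Of all peaks in the lists, 40.6% to 47.5% were lower than the height needed at CNS2. The background at CNS1 and CNS3 is not known, so these heights are only a guide there. At the promoter the background was higher, 16.3 tags in WT replicate 4 and 10.7 in KO replicate 1, against 13.0 and 8.06 at CNS2. The promoter therefore needed a taller peak in these libraries. Accessibility of CNS1, CNS3 and, in 4 libraries, the promoter was not detected by these calls, which can miss a peak under such heights. This does not show that the elements were closed.

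The remaining 2 regions were found in WT lists only. One, inside Foxp3 near its 3′ end (chromosome X, 7593347 to 7593600), was called in WT replicates 4 and 6, with a height of 32 and folds of 2.76 and 2.58. The other, downstream of the 3′ end (chromosome X, 7595956 to 7596155), was called in WT replicate 2 alone, with a height of 30 and a fold of 2.27. Such calls were common: 25.6% of the 64817 regions were called in at least 1 WT library and in no KO library, as were 2 of the 8 here, and 3.17% in at least 1 KO library and in no WT library, as were none here. No region of the locus was found in the 3 WT libraries and missing from the 3 KO libraries, against 4.66% of all regions, and none showed the reverse (0.0185%).

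In number of regions the genotypes did not overlap. Each WT library had 6 regions and each KO library 5, a difference of -1 (exact permutation p = 0.1, two-sided, n = 3 each). A smaller p cannot be reached with 3 libraries a group. Among the 16246 genes with a region, 17.2% had fewer regions in the KO libraries with no overlap of the groups and 0.0185% had more. With each list reduced to its 37266 most significant peaks the difference turned round: WT libraries then had 4 regions each and KO replicates 1, 2 and 4 had 4, 5 and 4. The groups then overlapped, and the change of sign rested on KO replicate 2 alone. Its list holds 37266 peaks in all and so was not cut. The 4 regions called in all 6 libraries stayed so in the lists of equal length and with a stricter threshold of 5 for the deposited -log10 q-value. With 200 bp windows around the summits 3 did, since the Ppp1r3f start region split, and 2 did when a library had to cover 50% of a region. In that setting the peak of KO replicate 2 covered 38.8% of the 3′ end region, and those of KO replicates 2 and 4 covered 34.3% and 39.7% of the Ccdc22 start region.

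To compare heights across libraries of unequal depth, each region was ranked by height within its library among the 29419 regions called in all 6 libraries. CNS2 had a percentile of 64.1, 68.1 and 72.7 in WT replicates 2, 4 and 6 and of 76.3, 64.1 and 70.3 in KO replicates 1, 2 and 4. The groups overlapped, with means of 68.3 ± 4.33 in WT and 70.2 ± 6.05 in KO (SD, n = 3 each, difference 1.91 percentile points, two-sided exact permutation p = 0.7). The direction of this difference rested on single libraries, since it was -0.207 without WT replicate 2 and -1.10 without KO replicate 1. The Ppp1r3f start region had 89.6, 82.9 and 85.5 in WT replicates 2, 4 and 6 and 89.7, 89.4 and 92.8 in KO replicates 1, 2 and 4. Its means were 86.0 ± 3.40 and 90.6 ± 1.9 (n = 3 each, exact permutation p = 0.2); WT replicate 2 lay within the KO range and the other WT libraries below it.

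The 3′ end region had percentiles of 54.1, 48.1 and 55.8 in WT and 59.7, 53.0 and 54.3 in KO libraries, in the same order of replicates, with means of 52.6 ± 4.03 and 55.7 ± 3.51 (n = 3 each, exact permutation p = 0.5). The Ccdc22 start varied most, with 41.6, 50.6 and 53.9 in WT and 39.5, 50.8 and 61.5 in KO libraries (n = 3 each, means 48.7 ± 6.37 and 50.6 ± 11.0, exact permutation p = 0.9). So by height in 4 of 4 regions the KO mean was higher and in 0 of 4 did the groups part, where 16.2% of all 29419 regions had groups that did not overlap (8.45% higher and 7.77% lower in KO). The median difference over all regions was 0.0204 percentile points. Whether a higher KO mean in 4 of 4 regions is unusual was not tested. No p from 3 against 3 libraries can pass adjustment over that many regions. Without KO replicate 4 or WT replicate 2 the difference at the Ccdc22 start, 1.90 points, became -3.55 or -1.66.

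At the Ppp1r3f start region the result depended on the measure that was ranked. By fold enrichment it had percentiles of 12.9, 7.33 and 8.12 in WT replicates 2, 4 and 6 and 21.5, 28.5 and 28.9 in KO replicates 1, 2 and 4, so that every KO library lay above every WT library (means 9.45 ± 3.01 and 26.3 ± 4.16, n = 3 each, exact permutation p = 0.1, the smallest possible). The groups parted in the same direction by height minus background (80.4 ± 3.90 and 87.5 ± 2.02, exact permutation p = 0.1, n = 3 each) and by the deposited p-value (61.8 ± 5.93 and 74.0 ± 2.81, exact permutation p = 0.1, n = 3 each). Of all 29419 regions, 15.8% parted with KO higher and 8.91% with KO lower by fold, 8.31% and 7.72% by height minus background, and 8.62% and 7.6% by p-value. The 3′ end region parted by fold alone, with 1.72, 2.88 and 3.65 in WT and 5.03, 10.7 and 3.85 in KO libraries (means 2.75 ± 0.972 and 6.51 ± 3.64, exact permutation p = 0.1, n = 3 each). CNS2 overlapped by each of these measures, at mean percentiles of 8.90 ± 4.56 and 13.7 ± 5.31 by fold (exact permutation p = 0.4, n = 3 each) and 43.3 ± 11.9 and 48.6 ± 10.2 by p-value (exact permutation p = 0.6, n = 3 each), as did the Ccdc22 start. The implied background, which enters all 3 measures, was itself lower in KO relative to the library median at all 4 regions, as given below, and its part in these differences was not tested.

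**Figure D4:**
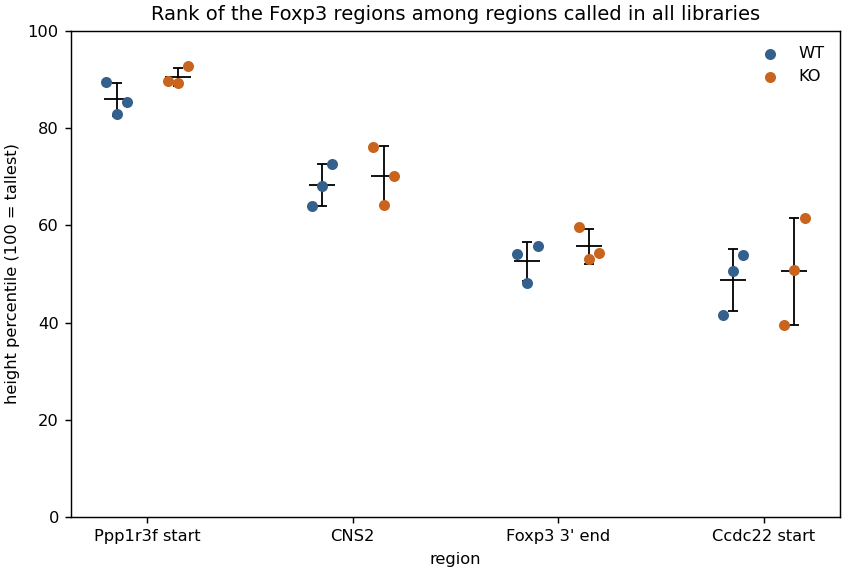
Height percentile of the 4 Foxp3 regions among the 29419 regions called in all 6 libraries, by library, with the mean and SD (n = 3 each) as a black bar and whiskers. WT and KO values overlap in each of the 4 regions.

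Ranked only among the 611 such regions of chromosome X, the 4 regions overlapped between genotypes as well (13.1% of these regions did not). There the Ppp1r3f start region stood at percentiles 96.2 to 99.5, and CNS2 at 75.8 ± 5.79 in WT and 78.8 ± 7.86 in KO (n = 3 each, exact permutation p = 0.7). The median percentile of chromosome X regions among all regions was 45.7 to 48.7 in WT and 44.0 to 46.3 in KO libraries, and the ranges overlapped.

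The balance of the 4 regions with each other was also similar. Of their summed height within a library, CNS2 made up 24.2%, 26.8% and 27.2% in WT replicates 2, 4 and 6 and 28.2%, 22.7% and 23.6% in KO replicates 1, 2 and 4. The mean share of CNS2 was 26.1% ± 1.65 in WT and 24.8% ± 2.98 in KO, and on the log2 scale the groups differed by -0.07 (n = 3 each, exact permutation p = 0.6). The Ppp1r3f start region made up 37.4% ± 2.57 and 40.8% ± 1.84 (log2 difference 0.13, exact permutation p = 0.3, n = 3 each), the 3′ end 18.9% ± 0.882 and 18.0% ± 1.28 (exact permutation p = 0.4), and the Ccdc22 start 17.6% ± 1.65 and 16.4% ± 3.29 (exact permutation p = 0.7). None of the 4 shares separated the genotypes, while 18.5% of region shares within all genes with at least 2 such regions did.

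Summits overlapped between genotypes in all 4 regions too, against 10.6% of the 29419 regions whose groups did not overlap. At CNS2 the mean distance from the Foxp3 start was 4423 ± 14.7 bp in WT and 4413 ± 37.0 bp in KO (n = 3 each, exact permutation p = 0.9). At the 3′ end it was 15747 ± 51.6 bp and 15606 ± 87.4 bp, a difference of -141 bp (exact permutation p = 0.2, n = 3 each). The local background over the library median was lower in KO with no overlap of the groups at all 4 regions, at CNS2 3.93 ± 0.145 in WT and 3.34 ± 0.229 in KO (exact permutation p = 0.1, n = 3 each). The same held for 65.2% of the 29419 regions, and the reverse for 0.0748%, so the members did as most regions did. The percentile of the background at CNS2 among those regions was 94.3 ± 0.996 and 94.1 ± 1.38 and overlapped (exact permutation p = 0.9, n = 3 each).

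The genes whose products act at the Foxp3 elements were described from a list of 20 drawn from general knowledge, with Runx1, Runx3 and Cbfb, Stat5a and Stat5b, Rel, Foxo1, Satb1, the NFAT genes and the demethylases Tet2 and Tet3 among them. Each of the 20 had a region called in all 6 libraries in or within 10 kb. Such regions were common, with a median of 2 over the 16246 protein-coding genes that had any region. Of their 284 regions, 129 (45.4%) were called in all 6 libraries, as were 45.4% of all regions, and 13 (4.58%) in every WT but no KO library, against 4.66% of all. Of these 13, 6 lay at Ets1 and 1 each at Runx1, Nfatc1, Nfatc2, Foxo1, Creb1, Satb1 and Tet2, while none was called in every KO but no WT library. Among the 129, 15 (11.6%) ranked higher and 7 (5.43%) lower in KO with no overlap of the groups, against 8.45% and 7.77% of all regions, and the median difference was 1.15 percentile points, against 0.0204 over all.

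Mean region counts were lower in KO for 18 of the 20 genes and equal for 2, where 66.7% of the 16246 genes had a lower and 30.7% an equal mean. Genes with few regions tie more easily, and these 20 had 284 regions while the median gene had 3. Satb1, whose product binds CNS0, had 12 ± 1 regions in WT and 6 ± 1.73 in KO libraries, and Runx1, which encodes a partner of Cbfb at CNS2, 18.7 ± 1.15 and 12.3 ± 1.15 (SD, n = 3 each). Foxo1, which encodes a forkhead factor that binds the Foxp3 promoter, had 9.33 ± 1.53 and 7 ± 1. Stat5b, which transmits interleukin-2 signals to CNS2, had 14.3 ± 1.15 and 11.3 ± 0.577, and Rel, which encodes the c-Rel that binds CNS3, 4 ± 0 and 3.67 ± 0.577. These counts were not tested, and neither depth nor the chromosome Y difference can be told apart from genotype in them.

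The 4 regions of the Foxp3 locus took a similar part of the accessible signal in each library. They include the starts of Ppp1r3f and Ccdc22. Of the summed height of the 4 regions, these starts held means of 37.4% and 17.6% in WT and 40.8% and 16.4% in KO. The 4 regions together made up 0.0156%, 0.0153% and 0.0166% of the summed height of all 29419 regions in WT replicates 2, 4 and 6. In KO replicates 1, 2 and 4 they made up 0.0171%, 0.0160% and 0.0179%. The ranges overlapped. Of 14325 other protein-coding genes, the 5 whose log2 shares over the 6 libraries were closest by Euclidean distance were 2310022A10Rik (distance 0.063), Grap (0.10), Klf16 (0.11), Zfp638 (0.11) and Vcl (0.13).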

How the data were processed

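The data were the deposited peak lists of 6 ATAC-seq libraries. Per the submitters' processing notes, Bowtie2 2.3.1, Picard 1.88 and mm10 were used. Peaks were called on each library alone, without control, by MACS 2.1.1.20160309 at a q-value of 0.05, with a tag shift of -100 bp, an extension to 200 bp and 1 tag kept per position, per the file headers. The deposited pileup is a signal in tags at the summit, unscaled. The deposited −log10 p-value and q-value test it against the local background, and the deposited fold is the ratio of (pileup + 1) to (background + 1), from which the background was computed. A deeper library can list weaker peaks.

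Peaks overlapping by 1 bp were merged over libraries. Where a library had several peaks in a region, the tallest was used. Genotypes were compared by an exact permutation test, two-sided, over the 20 assignments. The planned ratio of heights to the promoter region could not be made because the promoter was called in 2 libraries, so the sum of the 4 regions served instead. Genes came from RefSeq spans, without exons. All members are described, and 1 of the fixed cell markers is not reported here. A region was placed at an element by its approximate published position, and genes were named from the list of 20 if they had a region called in all WT and no KO libraries or were Rel, Runx1, Stat5b, Foxo1 or Satb1. The members and lists were chosen with earlier results of these data known. The ranking and merging were tested on simulated data. Alternatives were other height measures, thresholds, list lengths, merging, left-out libraries and pairing. Software was SciPy 1.17.1, pandas 2.3.3 and NumPy 2.4.6 under Python 3.11.15, with Matplotlib 3.10.9.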

Additional observations from a re-analysis of the deposited data

How the results depend on the processing

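The number of regions was lower by 1 in KO without any single library, in the pairs that share a replicate number (replicate block), with the stricter threshold and with 200 bp windows, and lower by 2 when a library had to cover 50% of a region. Of the settings run, only equal-length lists turned it round (0.333 more in KO), through KO replicate 2 alone, whose list was not cut. Height percentiles (KO minus WT) ranged over the left-out libraries from -1.10 to 4.95 at CNS2, from -3.55 to 7.43 at the Ccdc22 start, from 0.759 to 4.59 at the 3′ end and from 3.06 to 6.43 at the Ppp1r3f start region. CNS2 was at -0.207 without WT replicate 2 and -1.10 without KO replicate 1, and the Ccdc22 start at -1.66 without WT replicate 2, -3.55 without KO replicate 4 and -4.15 ranked by fold. Log2 shares taken from folds became 0.0367 at CNS2 and 0.13 at the 3′ end, in place of -0.07 each, and that of the Ccdc22 start, -0.12, became 0.0444 without KO replicate 1 and 0.0738 in the replicate block. The CNS2 summit difference, -10 bp, was 11.3 bp without KO replicate 2, and over the left-out libraries it ranged from -21.2 to 11.3 bp. The cause was not tested. Over left-out libraries the log2 share of the Ccdc22 start ranged from -0.25 to 0.04. The other 124 of 135 values kept their direction. In this design p cannot fall below 0.1, so stability was read from overlap of the groups, which changed in 14 of 122 alternatives: the region number overlapped in equal-length lists, the ranks of the Ppp1r3f start region parted by fold, height minus background and p-value, that of the 3′ end by fold, and 9 others parted without 1 library. These were the rank of the Ppp1r3f start region (without WT replicate 2 or KO replicate 2) and its share (without WT replicate 2), the shares of CNS2 and the 3′ end (without KO replicate 1), and the summits of the Ppp1r3f start region (without KO replicate 1), the 3′ end (without WT replicate 6 or KO replicate 4) and the Ccdc22 start (without KO replicate 4). Titles share the numbers 2 and 4 only. Deviations of same-numbered libraries had correlations of 0.000656 and -0.0456 over regions. Those of pairs with unlike numbers ran from -0.0533 to 0.0587. Such values cannot tell whether same-numbered libraries share more than a number. Heights in 200 bp windows could not be given for the Ppp1r3f start region, whose summits split, nor for the shares, and ranks away from gene ends only for CNS2. Counting peaks inside the window alone (4.67 ± 0.577 in KO) and shares relative to the Ppp1r3f start region were chosen after seeing the data.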
